A study of Homo sapiens with 2 samples.

Results

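The genes described here encode the subunits, assembly chaperones and regulators of the proteasome, the large protease that degrades proteins tagged with ubiquitin. They were taken by symbol, as all genes named PSMA to PSMG with a number, except PSMB8 and PSMB9. Of 46 such protein-coding genes in the RefSeq gene table of GRCh38.p14, 43 were measured, among 18417 genes in all. PSMC5, PSMD7 and PSMD13 are carried as a symbol by no sequence of the platform annotation used here and were not analysed. HT1080 cells, a human fibrosarcoma line, spent 24 h on a coating of BSA, the control protein, or of rLCC111. The latter is a recombinant laminin coiled-coil domain, a trimer of truncated mouse α1, β1 and γ1 chains purified from the medium of a human kidney cell line. There was 1 array per coating, and whether its RNA came from a single well or several is not stated, so no difference has a replicate check and no p-value is given.

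The proteasome consists of a barrel-shaped core and a regulatory particle at its ends. In the core, outer rings of alpha subunits (PSMA genes) gate the entrance and inner rings of beta subunits (PSMB genes) hold the proteolytic sites. The regulatory particle has a base, with a ring of ATPases (PSMC genes) that unfolds the substrate and pushes it into the core, and a lid that removes the ubiquitin chain. Dedicated chaperones assemble the core and the base, and other caps (PSME genes) can replace the regulatory particle. Rapidly growing tumour cells express these genes at high levels, and in many settings they are regulated together, in part through the transcription factor encoded by NFE2L1, which binds antioxidant response elements.

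Values are log2 levels from the RMA algorithm, which subtracts background, equalises the arrays and combines the probes of a sequence. A difference is rLCC111 minus BSA, in log2 units, and a fold is the same contrast on the linear scale. Levels of different genes come from different probes and are not compared with each other. The upper limit for silent genes was a level of 6.62, under which lay 95% of 379 olfactory, taste and other sensory receptor genes, by their mean level. On at least 1 array, 41 of the 43 proteasome genes were above it, and the exceptions were PSMA8, the alpha subunit of the testis, and PSMB11, the beta subunit of the thymus. Of the mesenchymal markers of this line, 8 of 8 were above the limit, VIM at 13.05 and FN1 at 12.80 on BSA. Above it were also 2 of 6 epithelial markers (KRT14 and KRT19), 2 of 5 blood markers (CD14 and SPI1) and 1 of 5 endothelial markers, TIE1, at 10.55 on BSA and 10.39 on rLCC111. EPCAM, CDH1, PTPRC and PECAM1 were below it on both arrays. Equal amounts of RNA from whole cultures were compared, so fewer cells that express a gene and less RNA per cell cannot be told apart.

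The upstream sequences of 4 genes are shown as a view of the promoters of this family. Of these, 3 are of genes that were lower on rLCC111, and PSMB4 had nearly the same level on both arrays. Each is the 250 bases before the RefSeq transcription start in GRCh38.p14, overlaps no gene of the RefSeq table, and is written 5′ to 3′ on the strand of the gene. PSMC6 lies at chr14:52706950-52707199 (plus strand), PSMC3 at chr11:47426440-47426689 (minus strand), PSMB3 at chr17:38752491-38752740 (plus strand) and PSMB4 at chr1:151399323-151399572 (plus strand). Capitals mark every match, on either strand, to the motifs searched, which were the GC box GGGCGG, the CCAAT box CCAAT, the ETS site CCGGAAGT and the antioxidant response element cores TGACNNNGC and TGAGNNNGC.
PSMC6: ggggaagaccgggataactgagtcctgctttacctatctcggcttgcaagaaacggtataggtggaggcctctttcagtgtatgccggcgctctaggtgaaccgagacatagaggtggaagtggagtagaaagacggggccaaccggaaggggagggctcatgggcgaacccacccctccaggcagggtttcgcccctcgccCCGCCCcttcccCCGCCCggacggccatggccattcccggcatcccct
PSMC3: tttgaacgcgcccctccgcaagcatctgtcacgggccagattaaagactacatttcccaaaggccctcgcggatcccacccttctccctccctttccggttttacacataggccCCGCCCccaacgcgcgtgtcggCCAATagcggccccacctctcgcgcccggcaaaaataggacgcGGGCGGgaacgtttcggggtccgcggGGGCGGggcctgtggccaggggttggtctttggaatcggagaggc
PSMB3: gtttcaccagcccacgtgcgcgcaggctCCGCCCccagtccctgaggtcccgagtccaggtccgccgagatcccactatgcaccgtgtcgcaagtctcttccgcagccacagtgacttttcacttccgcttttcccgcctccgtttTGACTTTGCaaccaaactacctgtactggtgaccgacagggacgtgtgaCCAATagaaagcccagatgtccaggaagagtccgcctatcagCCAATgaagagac
PSMB4: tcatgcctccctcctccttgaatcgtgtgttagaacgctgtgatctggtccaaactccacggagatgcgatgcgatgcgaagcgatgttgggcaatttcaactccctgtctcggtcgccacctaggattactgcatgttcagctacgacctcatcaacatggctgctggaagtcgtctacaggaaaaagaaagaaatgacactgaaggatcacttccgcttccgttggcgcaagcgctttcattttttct

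These letters are a description of the windows and not evidence of binding. PSMC6 holds 2 GC boxes on the opposite strand, PSMC3 3 GC boxes and a CCAAT box, and PSMB3 a GC box, 2 CCAAT boxes and an antioxidant response element core 104 bases before the start. PSMB4 holds none of these letters in its window, but other genes with nearly the same level on both arrays do. PSMD1 holds GC boxes, and PSME1 GC boxes and an antioxidant response element core. PSMD8 holds a CCAAT box, an ETS site and an antioxidant response element core. Sequences were found for 37 of the 43 genes; PSMA7, PSMB1, PSMB6, PSMB7, PSMD4 and PSMG3 have none in the table used.

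Proteasome genes were slightly lower on rLCC111 as a group. Of the 43, 35 had a difference below 0, against 46.6% of all genes, and 6 had one above 0. Their median was -0.12, a fold of 0.922, against 0.00 over all genes, and single genes ran from -0.29 for PSMC4 to 0.12 for PSMG4. None of the 43 was 2-fold different, where 0.0869% of all genes were at least 2-fold lower and 0.239% at least 2-fold higher. At the smaller fold of 1.2, 1 gene, PSMC4, was lower, a share below the background of 5.89%, and none was higher, against 6.76%. At 1.1-fold, a limit chosen after the values were seen, 16 of the 43 were lower, against 17.1%, and none was higher, against 16.6%. The share of lower genes was thus above the background at 1.1-fold and below it at 1.2-fold in the deposited values, and its place at 1.2-fold depended on the scaling. After median centring, which sets the array medians equal, 10 of the 43 were at least 1.2-fold lower, against 11.7% of all genes, and none was higher, against 3.99%. After lowess, none was lower or higher by 1.2-fold, against 5.92% and 6.48%, and after quantile normalization none, against 8.55% and 4.97%.

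**Figure D1:**
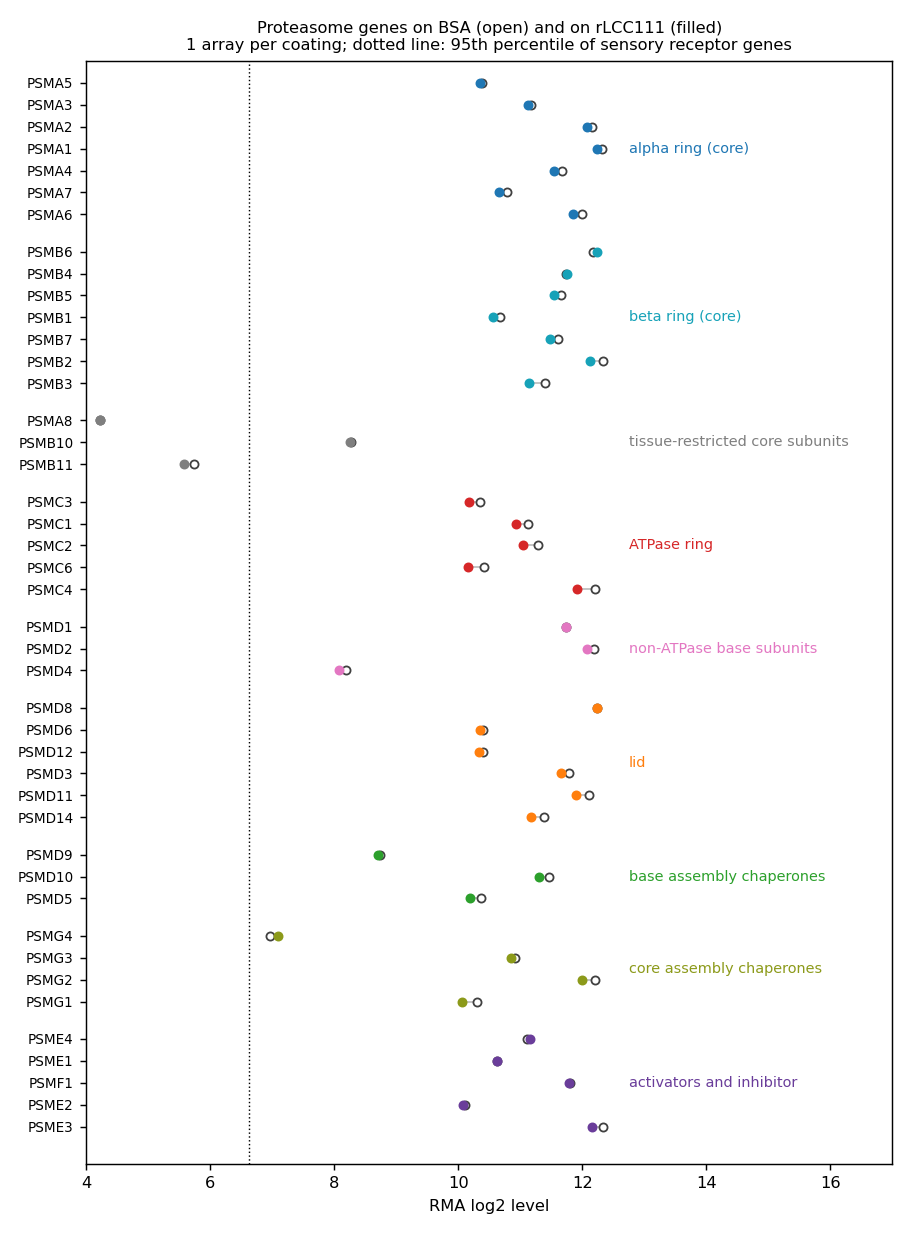
RMA log2 level (horizontal) of each of the 43 proteasome genes on the BSA array (open circles) and on the rLCC111 array (filled circles, coloured by subcomplex), with 1 array per coating and no error bars. The filled circle lies to the left of the open one for 35 genes, by at most 0.29, and PSMA8 and PSMB11 lie below the dotted limit of silent genes.

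Part of this side is shared by other strongly expressed genes. Among the 3658 genes with a mean level of at least 10, a limit chosen after the values were seen, 62.1% had a difference below 0 and the median was -0.05. Of the 37 proteasome genes in this range, 31 had a difference below 0, with a median of -0.12. In the same range 15 of the 37 were at least 1.1-fold lower, against 24.9%, and 0 at least 1.1-fold higher, against 12%. For 1.2-fold the background was 7.6% lower and 4.48% higher, and the proteasome genes had 1 and 0. Within the range the differences of the 37 genes showed no trend with level (Pearson r of 0.05 and Spearman rho of 0.06 across genes, which share the same 2 arrays and are not independent replicates).

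**Figure D2:**
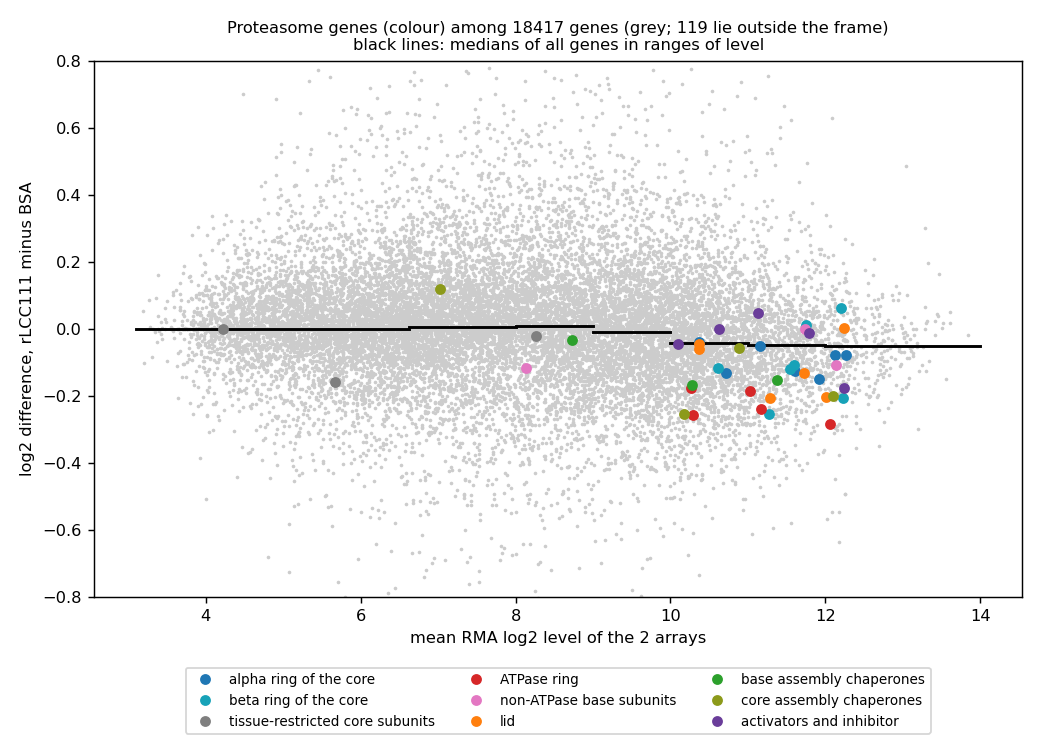
Log2 difference, rLCC111 minus BSA (vertical), against the mean log2 level of both arrays (horizontal) for 18417 genes in grey and the 43 proteasome genes in the colours of their subcomplexes; 119 grey genes lie outside the frame. Black lines give the median of all genes in ranges of level, which goes from 0.00 among silent genes to -0.05 above a level of 12, and most coloured points lie below them.

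The ATPase ring had the lowest median of any subcomplex, and PSMC4 the lowest difference of any proteasome gene, while PSMB2, PSMB3, PSMD11, PSMD14, PSMG1, PSMG2 and PSME3 of other groups lay within its range. These ATPases thread the substrate into the core. PSMC4 was at 12.20 on BSA and 11.91 on rLCC111 (fold 0.820). PSMC2 was at 11.29 and 11.05, a fold of 0.847, and PSMC6 was at 10.42 and 10.16, a fold of 0.837. PSMC1 was at 11.12 and 10.93 and PSMC3 at 10.35 and 10.17, with folds of 0.879 and 0.885. All 5 measured members were lower on rLCC111, each by 1.1-fold or more, and the median was -0.24. At least 1.1-fold lower were 17.1% of all genes and 24.9% of those with a mean level of at least 10. Of all genes with a mean level of at least 10, 5.96% had a difference as low as that of PSMC4 or lower, and 17.6% one as low as that of PSMC3.

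PSMC1 and PSMC6 are each represented by 2 sequences with the same accessions in the annotation, and the values above are those of the brighter one. The other sequence of PSMC1 gave nearly the same result, at 10.98 and 10.80, a difference of -0.18. The other sequence of PSMC6 was at 9.33 on BSA and 8.65 on rLCC111, or a difference of -0.68 (fold 0.625). Both sequences of PSMC6 were thus lower on rLCC111, but by unequal amounts, so the size of its difference depends on the sequence taken. RefSeq lists 13 processed or other pseudogenes of PSMC1 and 3 of PSMC6, and the annotation does not say which copy a sequence was drawn from. In all, 20 of the 43 genes have at least 1 such pseudogene, and probes could take up RNA of near-identical copies.

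**Figure D3:**
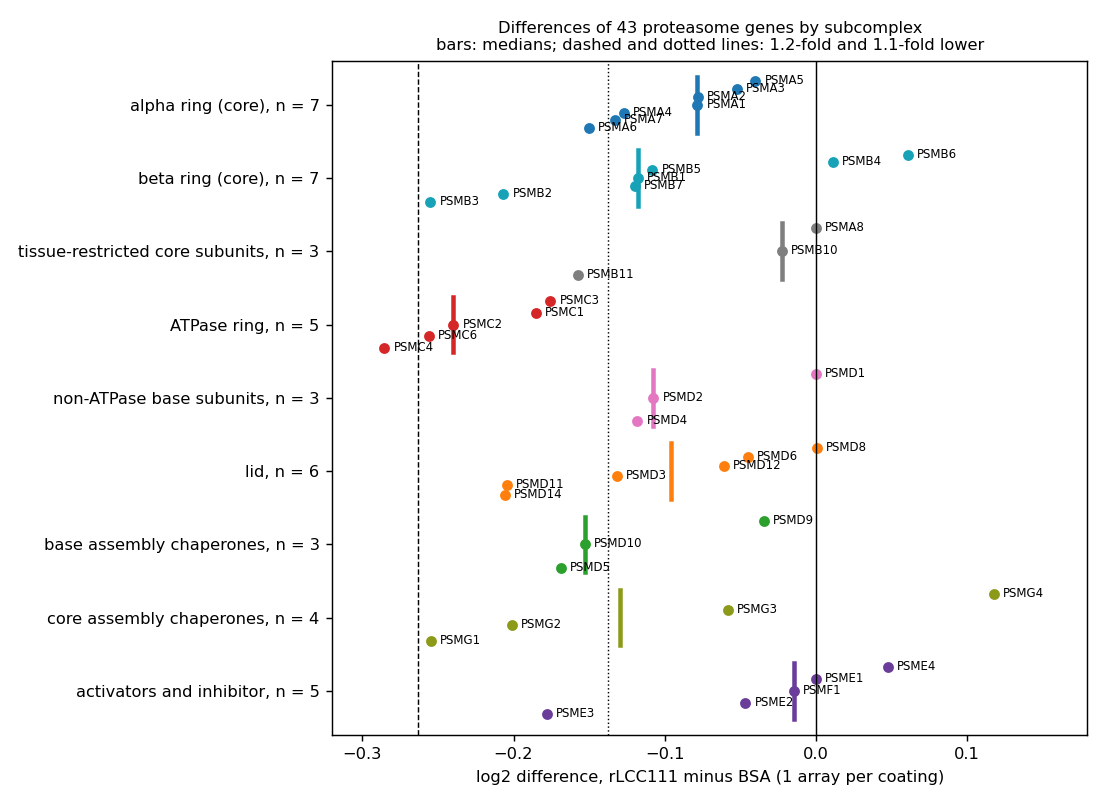
Log2 difference, rLCC111 minus BSA (horizontal), of each of the 43 proteasome genes by subcomplex (vertical); points are genes, bars are medians and 1 array was measured per coating. The 5 ATPase genes lie between -0.29 and -0.18, left of all 7 alpha ring genes, which lie between -0.15 and -0.04.

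In the alpha ring, which gates the entrance of the core, all 7 genes were lower on rLCC111. Below 0 were 46.6% of all genes and 62.1% of those with a mean level of at least 10. PSMA6 had the lowest difference, at 11.99 on BSA and 11.84 on rLCC111. PSMA7, at 10.79 and 10.66, and PSMA4, at 11.67 and 11.54, followed with folds of 0.912 and 0.916. PSMA1, PSMA2, PSMA3 and PSMA5 had smaller differences, between -0.08 and -0.04, and the ring was uniform, with an SD of 0.04 across its genes and a median of -0.08. The range of the alpha ring did not overlap that of the ATPase ring as deposited, nor after lowess or quantile normalization. The ranges were also apart with the mean of sequences and with the other sequences of PSMC1 and PSMC6. Median centring shifts all genes alike and the filters on silent genes left these genes unchanged, so neither could alter this. Lowess and quantile normalization shift genes by level. Mean levels ran from 10.36 to 12.27 in the alpha ring and from 10.26 to 12.06 in the ATPase ring. Both scalings could therefore change the separation only a little. This separation of 7 and 5 genes on a single pair of arrays was not tested.

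The beta ring was more varied than the alpha ring, and its 3 catalytic subunits were not all on the same side of 0. PSMB5, which carries the chymotrypsin-like site and is the main target of proteasome inhibitor drugs, was at 11.65 on BSA and 11.55 on rLCC111. PSMB7, with the trypsin-like site, was at 11.60 and 11.48. PSMB6, with the caspase-like site, was at 12.17 and 12.23, a difference of 0.06, and was the highest of the ring. Of the noncatalytic subunits, PSMB3 was at 11.39 and 11.14, a fold of 0.838, and PSMB2 at 12.33 and 12.13, a fold of 0.867. PSMB1 was at 10.67 and 10.55, and PSMB4 was at 11.74 and 11.76. In this ring 5 of 7 genes were below 0, against 46.6% of all genes and 62.1% of those with a mean level of at least 10. The median of the ring was -0.12 and its SD 0.11. PSMB4 and PSMB6 were below 0 after median centring, at -0.07 and -0.02, and above 0 after lowess and quantile normalization.

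Of the non-ATPase subunits of the base, PSMD1 and PSMD2 are large scaffolds and PSMD4 is a receptor for ubiquitin chains. PSMD2 was at 12.19 on BSA and 12.08 on rLCC111, and PSMD4 at 8.19 and 8.08, folds of 0.928 and 0.921. PSMD1 had the same deposited level, 11.74, on both arrays. Identical levels were found for 1325 genes, 7.19% of all, among them PSMA8.

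The lid holds PSMD14, the metalloprotease that cuts the ubiquitin chain from the substrate. PSMD14 was at 11.38 on BSA and 11.18 on rLCC111, and PSMD11, a scaffold of the lid, at 12.10 and 11.90, with folds of 0.867 and 0.868. PSMD3 was at 11.79 and 11.66, while PSMD12 and PSMD6 had differences of -0.06 and -0.04. PSMD8 was at 12.24 on both arrays. The 6 measured PSMD genes of the lid had a median of -0.10. Of these, 5 were below 0, against 46.6% of all genes and 62.1% of those with a mean level of at least 10. The range of these lid genes, from -0.21 to 0.00, overlapped those of both core rings and, through PSMD14 and PSMD11, that of the ATPases. SEM1, a small lid subunit whose symbol falls outside the rule, had a difference of 0.12 and is not in this summary. PSMD8 had differences of -0.08 after median centring and 0.04 after lowess.

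Of the 7 assembly chaperones, 6 were lower on rLCC111, against 46.6% of all genes and 62.1% of those with a mean level of at least 10. Of the chaperones of the base, PSMD5 was at 10.36 on BSA and 10.19 on rLCC111, PSMD10, also known as gankyrin, at 11.45 and 11.30, and PSMD9 at 8.74 and 8.70. Of the chaperones of the core, PSMG1 and PSMG2, which pair with each other and guide the formation of the alpha ring, were at 10.31 and 10.05 and at 12.20 and 11.999, folds of 0.838 and 0.870. PSMG3 was at 10.91 and 10.85. Its partner PSMG4 was at 6.97 and 7.09, just above the limit of silent genes, and had the highest difference of the 43 genes, 0.12. It was the only one above 0 under all 4 scalings, which were the deposited values, median centring, lowess and quantile normalization. The 7 chaperones together had a median of -0.15, between those of the alpha and ATPase rings.

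The alternative caps were the group nearest to 0. PSME1 and PSME2, which form the cap induced by interferon-gamma, were at 10.62 on both arrays and at 10.12 and 10.07. PSME3, a nuclear cap, was at 12.33 on BSA and 12.15 on rLCC111 (fold 0.884). PSME4, a large nuclear activator, was at 11.11 and 11.16, and PSMF1, which was named as an inhibitor of the core, at 11.79 and 11.78. Their median was -0.01, and 0.03 after lowess, so that the side of 0 depends on the scaling.

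The variant, tissue-restricted subunits of the core take the place of constitutive ones in certain tissues. PSMB10, the counterpart of PSMB7 in the immunoproteasome, was at 8.27 on BSA and 8.25 on rLCC111. The other immunoproteasome subunits, PSMB8 and PSMB9, were at 8.35 and 8.39 and at 7.99 and 8.12, differences of 0.04 and 0.13, while their constitutive counterparts PSMB5 and PSMB6 had -0.11 and 0.06. PSMA8 was at 4.22 on both arrays and PSMB11 at 5.74 and 5.58, both below the limit of silent genes.

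**Figure D4:**
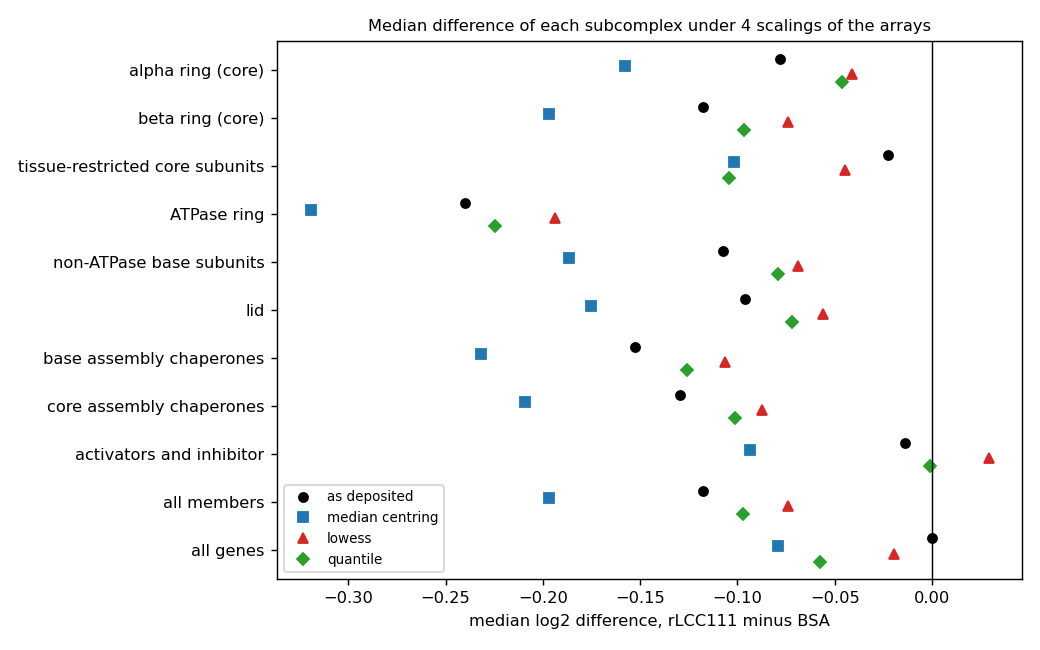
Median log2 difference, rLCC111 minus BSA (horizontal), of each subcomplex, of all 43 proteasome genes and of all 18417 genes (vertical) under 4 scalings of the same 2 arrays. The ATPase ring has the lowest median under each, from -0.32 to -0.19, and the median of the activators and inhibitor crosses 0.

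Most genes lay on 1 side of 0 under every scaling, but the distance from 0 varied with it. Of the 43 genes, 34 were below 0 under all 4, 1 was above 0 under all 4, and the sign of 8 differed between them or was 0. In the order given above, 35, 42, 35 and 36 of the 43 were below 0, against 46.6%, 73.6%, 55.8% and 65.8% of all genes. In the same order, the medians of all genes were 0.00, -0.08, -0.02 and -0.06. Relative to these, the median of the proteasome genes was lower by 0.12 as deposited and after median centring, by 0.05 after lowess and by 0.04 after quantile normalization, each on the log2 scale. For the ATPase ring the same distances were 0.24, 0.24, 0.17 and 0.17.

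Among genes around the proteasome, taken from lists chosen by function, those whose products bind it were mostly on the same side as the subunits. Of 16 proteins that bind, assemble or localise the proteasome, 12 were below 0, against 46.6% of all genes, with a median of -0.10. Of the 16, 3 were at least 1.2-fold lower, against 5.89%, and none was higher, against 6.76%. With a mean level of at least 10 there were 12, of which 9 were below 0, against 62.1% of genes in that range. Their median was -0.10, against -0.05. AKIRIN2, which brings proteasomes into the nucleus, was at 10.72 on BSA and 10.32 on rLCC111 (fold 0.753). PITHD1 was at 9.48 and 9.08, a fold of 0.757, and UCHL5, a ubiquitin protease of the base, at 10.29 and 9.94, a fold of 0.787. Its docking site on the base, ADRM1, had a fold of 0.883, and POMP, which matures the core, 0.929. On the other side were SEM1, a small subunit of the lid, with a difference of 0.12, PAAF1, a chaperone of the base, with 0.11, FBXO7 with 0.03 and ZFAND5, which stimulates the proteasome, with 0.16.

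The transcription factor NFE2L1, which induces proteasome genes when proteolysis fails, was at 11.59 on BSA and 11.58 on rLCC111. The 11 measured genes of its processing and partners had a median of 0.02, from -0.12 for HCFC1 to 0.25 for SEL1L. None was 1.2-fold different, where 5.89% of all genes were at least 1.2-fold lower and 6.76% at least 1.2-fold higher. SEL1L was at least 1.2-fold higher after lowess, at 0.29, and after quantile normalization, at 0.27. The side of 0 of the median depended on the scaling, with -0.059 after median centring and 0.032 after lowess. For 10 genes of ubiquitin, its activation and the shuttles that carry substrates to the proteasome the median was -0.02. They ran from -0.16 for BAG6 to 0.04 for UBQLN2. None of the 10 was 1.2-fold different, against the same shares of all genes. With the mean of a gene's sequences UBQLN4 was at least 1.2-fold lower, at -0.31. The median of the 10 was -0.098 after median centring and 0.0075 after lowess. UBB, a polyubiquitin gene, had the same level, 13.18, on both arrays. These genes lay nearer to 0 than the subunits, a difference that was not tested.

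The promoters were then set beside the differences. The core TGACNNNGC was present in 10 of the 37 promoters, 27.0%, against 11.8% of 14239 promoters of measured genes, and TGAGNNNGC in 10 of 37, against 15.7%. The medians of the genes with and without the first were -0.10 and -0.11, and with and without the second -0.08 and -0.13. CCAAT was present in 15, 40.5%, against 34.4%, and the 15 had a median of -0.15, against -0.07 for the other 22. GGGCGG was present in 22, 59.5%, against 57.5%, with medians of -0.12 for those with it and -0.11 for the others. CCGGAAGT was present in 5, 13.5%, against 5.22%, namely PSMA8, PSMC2, PSMD8, PSMD12 and PSME4. These 5 had a median of 0.00, against -0.13 for the other 32. That median is the value of PSMA8, which was below the limit of silent genes on both arrays. The rest of the 5 ran from -0.24 for PSMC2 to 0.05 for PSME4. Of the 5 ATPase promoters, 4 held a GC box, 2 a CCAAT box (PSMC2 and PSMC3) and 1 an antioxidant response element core (PSMC4). These counts are small.

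**Figure D5:**
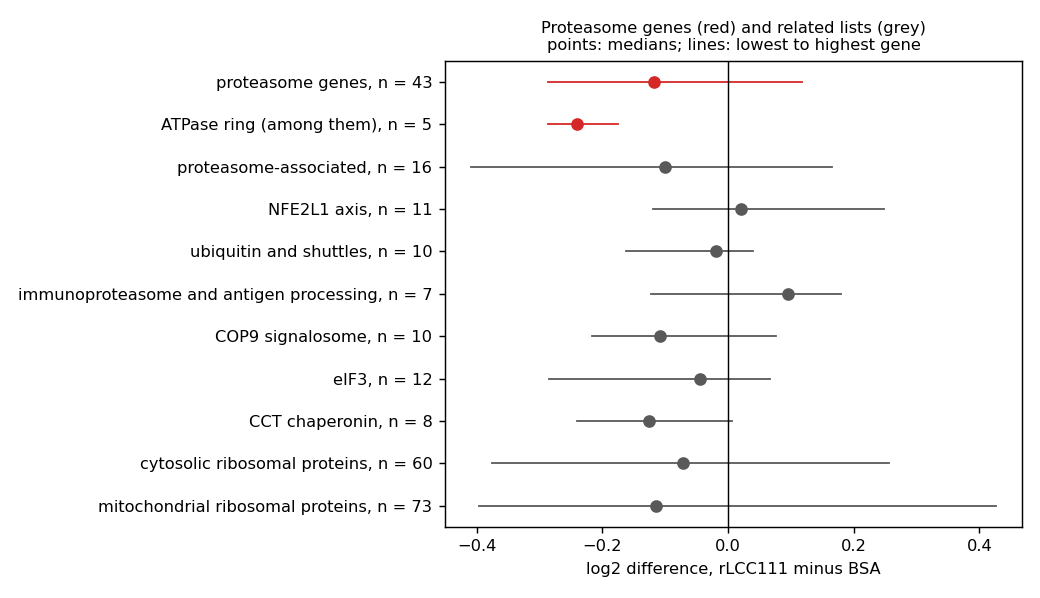
Median (points) and lowest to highest log2 difference, rLCC111 minus BSA (lines), of the 43 proteasome genes and their ATPase ring (red) and of lists of related genes (grey), with the number of genes measured. The line of the ATPase ring lies wholly below 0, and the medians of the COP9 signalosome, CCT chaperonin and mitochondrial ribosomal proteins, at -0.11, -0.13 and -0.11, lie beside that of the proteasome genes, at -0.12.

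The lid shares its architecture with the COP9 signalosome, which removes NEDD8 from cullins, and with the translation factor eIF3. Of 10 COP9 genes, 8 were below 0, with a median of -0.11, from -0.22 for COPS3 to 0.08 for COPS5, the counterpart of PSMD14. Below 0 were 46.6% of all genes and 62.1% of those with a mean level of at least 10, whose median was -0.05. Of 12 eIF3 genes, all with a mean level of at least 10, 10 were below 0, with a median of -0.04. EIF3E, at 10.56 and 10.28, was the lowest and the only one 1.2-fold different. Of all genes, 5.89% were at least 1.2-fold lower and 6.76% at least 1.2-fold higher. EIF3L was the highest eIF3 gene, at 0.07. The side of the eIF3 genes depended on the scaling, with 6 of 12 below 0 after lowess, at a median of -0.0035, and 7 of 12 after quantile normalization, at -0.015. Of the COP9 genes, 8 of 10 were below 0 after lowess and 10 of 10 after quantile normalization. The PSMD genes of the lid, at -0.10, lay between them. No test set the proteasome apart from these complexes.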

How the data were processed

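Total RNA of 1 sample per coating was hybridised to GeneChip Human Gene 1.0 ST arrays. Log2 levels were made by the authors with RMA in Affymetrix Expression Console (settings, version and build: not given in the sources used here). Limma, named in the study's methods, has no residual degree of freedom with 1 array per group and was not run. The deposited levels of 33297 sequences were used unscaled. Sequences were named from the platform annotation, updated through gene identifiers to RefSeq (19460 with 1 symbol, 1754 with several, 12083 with none); only those with 1 symbol were used, and a gene was given by its sequence of highest mean level. Array medians were 7.04 on BSA and 7.12 on rLCC111. The number of arrays limits the precision. Members and lists were chosen with earlier results of these data known. All members measured were named; within each subcomplex the highest and lowest lead, and in related lists the highest, the lowest and those 1.2-fold different, and further genes of these lists were picked with values known. The alternatives tried were median centring, lowess (span 0.2, 3 iterations), quantile normalization, the mean of a gene's sequences and filters on the limit of silent genes; added after seeing the data were a level of at least 10, a fold of 1.1 and the other sequence of PSMC1 and PSMC6. Promoters came from RefSeq (GRCh38.p14). The code that counts genes past a fold was run on simulated levels with known differences, which checks the code and not the differences reported. Python 3.11.15, numpy 2.4.6, pandas 2.3.3, scipy 1.17.1, statsmodels 0.14.6 and matplotlib 3.10.9 were used.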

Additional observations from a re-analysis of the deposited data

How the results depend on the processing

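Every subcomplex median stayed below 0 under all alternatives run, except that of the activators and inhibitor, which was -0.094 after median centring, 0.029 after lowess and -0.0008 after quantile normalization. The median of all genes was itself below 0 in these scalings, at -0.079, -0.020 and -0.058, so 0 was not the background. Median centring, which takes 0.08 from every difference, gave medians of -0.20 for all 43 genes, -0.20 for the constitutive subunits of core, base and lid, -0.16 for the alpha ring, -0.20 for the beta ring, -0.10 for the variant core subunits, -0.19 for the non-ATPase base subunits, -0.18 for the lid, -0.23 for the base chaperones and -0.21 for the core chaperones. Lowess gave -0.074 for all 43 genes, -0.041 for the alpha ring, -0.074 for the beta ring, -0.045 for the variant subunits, -0.069 for the non-ATPase base subunits and -0.056 for the lid. Quantile normalization gave -0.046 for the alpha ring and -0.10 for the variant subunits. Relative to the median of all genes, the alpha ring was then at 0.012 and the lid at -0.014. At mean levels of at least 10 the non-ATPase base subunits had -0.054, without PSMD4, and the core chaperones -0.20, without PSMG4. The number of genes at least 1.2-fold lower was 10 after median centring (11.7% of all genes), 0 after lowess, 0 after quantile normalization and 2 with the mean of a gene's sequences or the other sequences of PSMC1 and PSMC6, where PSMC6 is the added gene. The median of the ATPase ring went from -0.24 to -0.32 after median centring and to -0.19 after lowess. Each filter on the limit of silent genes left 41 genes and changed no difference among them. With 1 array per coating, no array could be left out.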

Other observations

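For the counts that follow, 46.6% of all genes were below 0, and 62.1% of those with a mean level of at least 10. Of the 8 genes of the CCT chaperonin, which folds actin and tubulin, 6 were below 0, with a median of -0.13, from -0.24 for CCT6A to 0.01 for CCT8. Of 73 genes of the mitochondrial ribosome, 64 were below 0, with a median of -0.11, from -0.40 for MRPL58 to 0.43 for MRPS25. At least 1.2-fold lower were 12 of them, MRPL58, MRPS17, MRPS27, MRPL57, MRPL9, MRPL13, MRPL10, MRPL23, MRPS15, MRPL19, MRPS18C and MRPL39, against 5.89% of all genes, and 1, MRPS25, was higher by as much, against 6.76%. Of 60 genes of the cytosolic ribosome, 49 were below 0, with a median of -0.07, from -0.37 for RPS24 to 0.26 for RPL39L. RPL39L was below the limit of silent genes on both arrays, and the highest of the other 59 was RPL23, at 0.15. RPS24, RPL10, RPL10A and RPL24 were at least 1.2-fold lower, 4 of 60 against 5.89%. The median level of the 60 was 12.2. Of all genes above a level of 12, 69.3% were below 0, with a median of -0.05. After quantile normalization the 60 had a median of -0.055, against -0.058 for all genes. Genes of antigen processing had 6 of 7 above 0 and a median of 0.10 in the deposited values. They had 4 of 7 and 0.016 after median centring, 6 of 7 and 0.10 after lowess, and 4 of 7 and 0.050 after quantile normalization. Relative to the median of all genes, their median was 0.096 as deposited and after median centring, 0.12 after lowess and 0.11 after quantile normalization. This was not tested. TAP1, which carries peptides into the endoplasmic reticulum, had the highest difference, 0.18, and TAP2, its partner, the lowest, -0.12.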
